A study of Mus musculus with 8 samples.

Results

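The 9 core genes of the circadian clock were examined in mouse primary hepatocytes (MPH) exposed to acute endoplasmic reticulum stress (ERS). They are Arntl, Clock, Rora, Per1, Per2, Cry1, Cry2, Nr1d1 and Nr1d2, listed by name as the core loop of the clock. MPH of adult male WT C57Bl6 mice (C57BL/6J in the study's methods) were treated for 4 h with 1 µM thapsigargin, which empties the calcium store of the endoplasmic reticulum, or with 0.04% DMSO as vehicle. Chromatin carrying H3K27ac, the acetylated histone H3 found at active promoters and enhancers, was sequenced in 3 libraries per treatment from independent hepatocyte preparations, beside 1 input library per treatment. The mice were kept in a dark-light cycle, and the hour at which hepatocytes were prepared or harvested is not given in the sources used here. The values are positions of regions on mm10 in 3 deposited lists, 5508 H3K27ac UP, 3376 H3K27ac DOWN and 23312 unchanged regions, where UP means more H3K27ac after thapsigargin. Since the lists carry neither counts nor fold changes, sequencing depth is unknown, values have no error across preparations, and differences between genes are descriptions without a test. A region called unchanged is one that missed the threshold, which does not show that its H3K27ac stayed equal.

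The molecular clock is a feedback loop of transcription that runs in nearly every cell and, in the liver, times the metabolism of glucose, lipids and bile acids. ARNTL (also called BMAL1) and CLOCK bind DNA together at E-boxes and activate the Per, Cry and Nr1d genes. PER and CRY proteins then return to the nucleus and repress ARNTL and CLOCK. In a second loop, the nuclear receptors NR1D1 and NR1D2 (REV-ERB alpha and beta) repress Arntl, while ROR proteins such as RORA activate it through the same element.

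All 9 genes had a transcription start site (TSS) in an H3K27ac region, with TSSs taken from every transcript in GENCODE release M21. The TSS of Per2, Cry1 and Nr1d1 lay in an UP region, that of Cry2 in a DOWN region, and those of Arntl, Clock, Rora, Per1 and Nr1d2 in unchanged regions only. Hence 3 of the 4 promoters with a called change were UP, and all 4 belong to repressors of the loop. No activator had a promoter in an UP or DOWN region. The activators are only Arntl, Clock and Rora, too few to set apart from the repressors, and the split was not tested. The background was 12261 genes with a TSS in any region: UP regions held a TSS of 21.4% of them and DOWN regions of 8.91%, while 70.1% had unchanged regions only. For the 9 clock genes these shares were 33.3%, 11.1% and 55.6%, where 1 gene makes 11.1%, so the counts lie within 2 genes of the background. Within each gene, all TSSs that fell in a region fell in the same one, and no gene had promoters of different classes. Gene by gene, the H3K27ac landscape was more varied than the promoters alone, as the map of regions around each TSS shows.

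**Figure D1:**
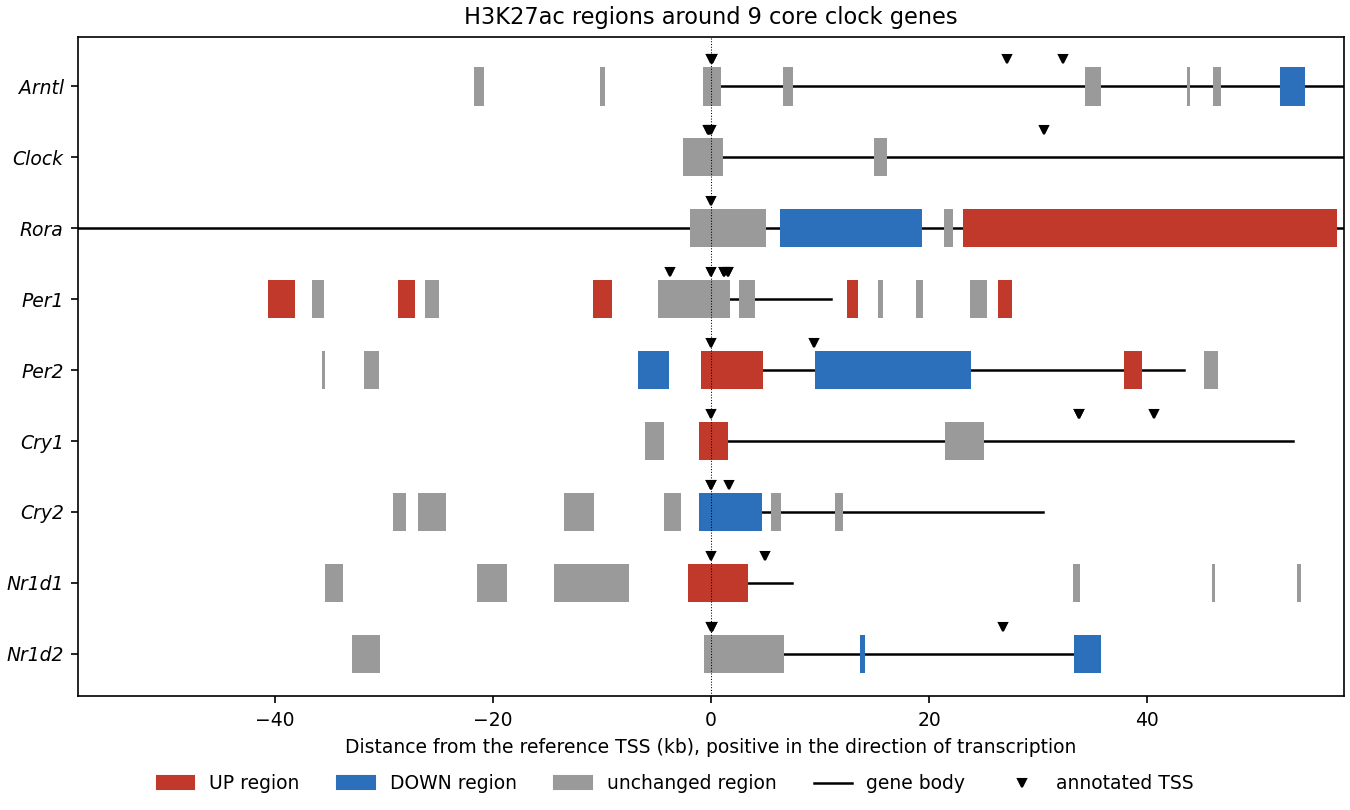
H3K27ac regions in the body or within 50 kb of a TSS of each of the 9 core clock genes, drawn around the reference TSS. The x axis is the distance in kb from that TSS along the direction of transcription, boxes are regions coloured by class, black lines are gene bodies and triangles are annotated TSSs. UP boxes cover the TSS of Per2, Cry1 and Nr1d1 and a DOWN box covers that of Cry2. Rora and Per2 carry wide boxes of both classes.

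The same hepatocytes were checked with cell type markers. A TSS of all 5 hepatocyte markers lay in a region, among them Alb in an unchanged and Hnf4a in a DOWN region. Of 19 markers of other liver cells, 3 had a TSS in a region. They were 1 of 4 endothelial markers (Stab2, unchanged) and 2 of 4 cholangiocyte markers (Spp1 unchanged, Sox9 UP). Of 4 Kupffer cell, 4 stellate cell and 3 lymphocyte markers, 0 had one.

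The promoters of the repressors in UP and DOWN regions are shown with that of Per1, a repressor in an unchanged region, and that of Arntl, the activator on which both loops converge. Each window holds 250 bases before and 50 after a RefSeq start on GRCm38.p6, the assembly behind mm10, and lies wholly inside the region at that TSS. Capitals mark matches on either strand to 6 short motifs: the E-box (CACGTG), the E′-box (CACGTT), the ROR element (TAGGTCA or TGGGTCA), the D-box (TTATGTAA or TTATGCAA), the cAMP response element (TGACGTCA) and the composite ATF4/CHOP element of the stress response (TGATGCAA). The E-box and the cAMP response element read the same on both strands and were counted once. No match of one motif overlaps a match of another in these windows.
Cry1 (chr10:85185005-85185304, - strand): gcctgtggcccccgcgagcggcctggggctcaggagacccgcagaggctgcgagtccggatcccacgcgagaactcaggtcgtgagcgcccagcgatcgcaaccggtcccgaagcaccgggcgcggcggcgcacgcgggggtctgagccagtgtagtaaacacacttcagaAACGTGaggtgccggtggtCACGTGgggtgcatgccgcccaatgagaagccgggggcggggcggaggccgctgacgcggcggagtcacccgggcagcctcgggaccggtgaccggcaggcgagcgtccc
Nr1d1 (chr11:98775328-98775627, - strand): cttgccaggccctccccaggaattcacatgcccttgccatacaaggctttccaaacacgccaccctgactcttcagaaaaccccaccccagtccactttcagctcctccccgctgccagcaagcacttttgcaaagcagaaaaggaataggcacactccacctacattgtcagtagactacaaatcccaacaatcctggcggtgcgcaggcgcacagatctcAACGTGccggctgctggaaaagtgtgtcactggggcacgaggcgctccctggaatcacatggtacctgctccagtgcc
Cry2 (chr2:92434020-92434319, - strand): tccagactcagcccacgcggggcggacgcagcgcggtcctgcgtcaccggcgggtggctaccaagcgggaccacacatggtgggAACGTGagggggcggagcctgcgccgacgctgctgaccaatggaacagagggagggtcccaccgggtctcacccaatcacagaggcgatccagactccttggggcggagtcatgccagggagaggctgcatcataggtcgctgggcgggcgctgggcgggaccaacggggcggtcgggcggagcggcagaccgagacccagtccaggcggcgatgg
Per1 (chr11:69098699-69098998, + strand): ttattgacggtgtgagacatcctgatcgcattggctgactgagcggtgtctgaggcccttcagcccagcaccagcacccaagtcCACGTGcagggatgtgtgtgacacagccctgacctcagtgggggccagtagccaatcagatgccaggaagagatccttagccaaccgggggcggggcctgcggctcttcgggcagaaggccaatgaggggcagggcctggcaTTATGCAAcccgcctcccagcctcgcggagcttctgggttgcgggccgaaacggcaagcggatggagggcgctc
Arntl (chr7:113207261-113207560, + strand): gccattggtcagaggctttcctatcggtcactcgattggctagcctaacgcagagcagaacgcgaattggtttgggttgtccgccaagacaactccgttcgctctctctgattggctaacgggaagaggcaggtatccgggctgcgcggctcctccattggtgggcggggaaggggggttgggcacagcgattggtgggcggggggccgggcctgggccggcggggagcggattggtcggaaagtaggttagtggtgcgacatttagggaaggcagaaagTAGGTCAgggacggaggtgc

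RefSeq promoter windows were matched for 8 of the 9 genes, 12 windows in all, and Per2 had no entry. The E-box stood in Cry1 and Per1, and in 7.15% of 32817 promoter windows of the mouse. The E′-box stood in Cry1, Cry2 and Nr1d1, against 4.69% of all windows. Thus Cry1 had both, with the E′-box starting at -79 and the E-box at -60 bp from the RefSeq start. Both motifs contain CG, and the windows of Cry1, Cry2 and Nr1d1 held 38, 30 and 9 CG, against a median of 7. Their GC content was 72.3%, 70.3% and 56.3%, against a median of 52.7%, and windows of like composition were not compared. The shares are per window, whereas some genes had several windows, so no enrichment can be read from them. Each of the 3 promoters with a called change and a sequence, Cry1 and Nr1d1 (UP) and Cry2 (DOWN), held an E′-box. Counted over whole TSS regions, as in the next paragraph, the changed ones of Per2, Cry1 and Nr1d1 held 2 each and that of Cry2 held 3. The unchanged ones of Clock and Per1 held 1 each, and those of Arntl, Rora and Nr1d2 held 0. Of regions of like width (0.8 to 1.25 times), 23.7% to 65.1% held any. The element thus stood at promoters of every class, and a link to a called change or to its direction was not tested. A D-box (1.66% of all windows) lay 24 bp before the start of Per1, and a ROR element (6.46%) 30 bp after that of Arntl. No clock gene window held the cAMP response element (1.79%) or the ATF4/CHOP element (0.896%). The 3 windows of Clock and the windows of Nr1d2 and Rora held no match. That of Rora is at its far 5′ start, which lies in no region.

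Motifs were next counted over whole regions, a step added after the region lists had been seen. The 2 regions with the most E-boxes among the TSS regions of the 9 genes were the UP region of Nr1d1 and the unchanged region of Per1, with 5 each. That is 0.909 E-boxes per kb in Nr1d1 and 0.758 in Per1, against 0.166 over all 32196 regions, of which 10642 hold a TSS. Of 1568 regions with 0.8 to 1.25 times the width of the Nr1d1 region, 0.319% held as many or more. Of 1118 regions of a width like that of Per1, 0.626% did. These regions were matched by width alone, whether or not they hold a TSS, and base composition was not matched. Both genes are repressors activated through E-boxes, and their regions held the same number, yet one was called UP and the other unchanged. These 2 regions were picked as the highest of the 9. The TSS regions of Arntl, Clock, Rora and Cry2 held 0, those of Per2 and Cry1 held 1 each, and that of Nr1d2 held 3. The 10 sites in Nr1d1 and Per1 are printed with 10 bases on each side. They are read from the same assembly along the gene's own strand, and capitals mark the E-box. Distances run to the reference TSS of GENCODE, negative upstream.
Nr1d1 E-box 1 (chr11:98775685-98775710, - strand, -367 bp from the TSS): gttctccaatCACGTGaagctctcac
Nr1d1 E-box 2 (chr11:98774144-98774169, - strand, 1174 bp from the TSS): gagccgggccCACGTGctgcatttgt
Nr1d1 E-box 3 (chr11:98773864-98773889, - strand, 1454 bp from the TSS): gttggggtgcCACGTGcgaggggcac
Nr1d1 E-box 4 (chr11:98773849-98773874, - strand, 1469 bp from the TSS): gcgaggggcaCACGTGgagtggggac
Nr1d1 E-box 5 (chr11:98773028-98773053, - strand, 2290 bp from the TSS): tcacctcacaCACGTGtctgaggatc
Per1 E-box 1 (chr11:69094873-69094898, + strand, -4065 bp from the TSS): agccagcctgCACGTGttccctacag
Per1 E-box 2 (chr11:69095057-69095082, + strand, -3881 bp from the TSS): cccccgccctCACGTGgctctatcac
Per1 E-box 3 (chr11:69097664-69097689, + strand, -1274 bp from the TSS): aagctttagcCACGTGacagtgaggg
Per1 E-box 4 (chr11:69098410-69098435, + strand, -528 bp from the TSS): cccttaacgaCACGTGggccctcaat
Per1 E-box 5 (chr11:69098773-69098798, + strand, -165 bp from the TSS): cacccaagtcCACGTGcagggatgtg

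In Nr1d1, 1 E-box lay upstream of the TSS and 4 lay downstream of it, inside the gene. In Per1 all 5 lay upstream of the reference TSS, the last one in the promoter window printed above. The last 3 are inside the gene all the same, since the coding transcript Per1-202 starts further upstream, at 69095217.

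Arntl and Clock encode the activators. Arntl lies on chr7:113207465-113314126 (+). Its promoter region of 1659 bp (chr7:113206725-113208383) was unchanged, and it was the narrowest of the 9. The gene had 8 regions within 50 kb of a TSS, all nearest to Arntl itself, and 7 of them were unchanged. The exception was a DOWN region of 2289 bp (chr7:113259601-113261889) in intron 2, which starts 52136 bp after the TSS and touches no exon. It covers 2.15% of the gene, and no UP region lay within 50 kb.

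Clock lies on chr5:76209868-76304792 (-) and had the fewest regions. It had 2 regions within 50 kb, both unchanged, and 91.2% of genes have as many or more. The promoter region of 3676 bp (chr5:76303479-76307154) also holds a TSS of Gm7467, and the other region, of 1144 bp, lies in intron 2. Hence neither activator had an UP region, and Arntl alone had a DOWN region.

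Rora encodes the ROR activator of Arntl and is by far the longest of the 9 genes, 734461 bp on chr9:68653786-69388246 (+). Of its 5 distinct TSSs, 4 lay in no region, including the start of the long isoform. The TSS of the short transcript Rora-202 lay in an unchanged region of 6946 bp (chr9:69287798-69294743). Downstream, all inside intron 1 of that transcript, followed a DOWN region of 13069 bp (chr9:69295986-69309054), an unchanged region of 867 bp and an UP region of 34265 bp (chr9:69312773-69347037). Loss and gain of H3K27ac thus lay side by side in one intron. The DOWN region ranked 58 among 3376 DOWN regions by width, and the UP region ranked 2 among 5508 UP regions. The TSS nearest to that UP region belongs to the non-coding gene Gm15511, 17210 bp away, and the Rora-202 TSS lies 23091 bp away.

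**Figure D2:**
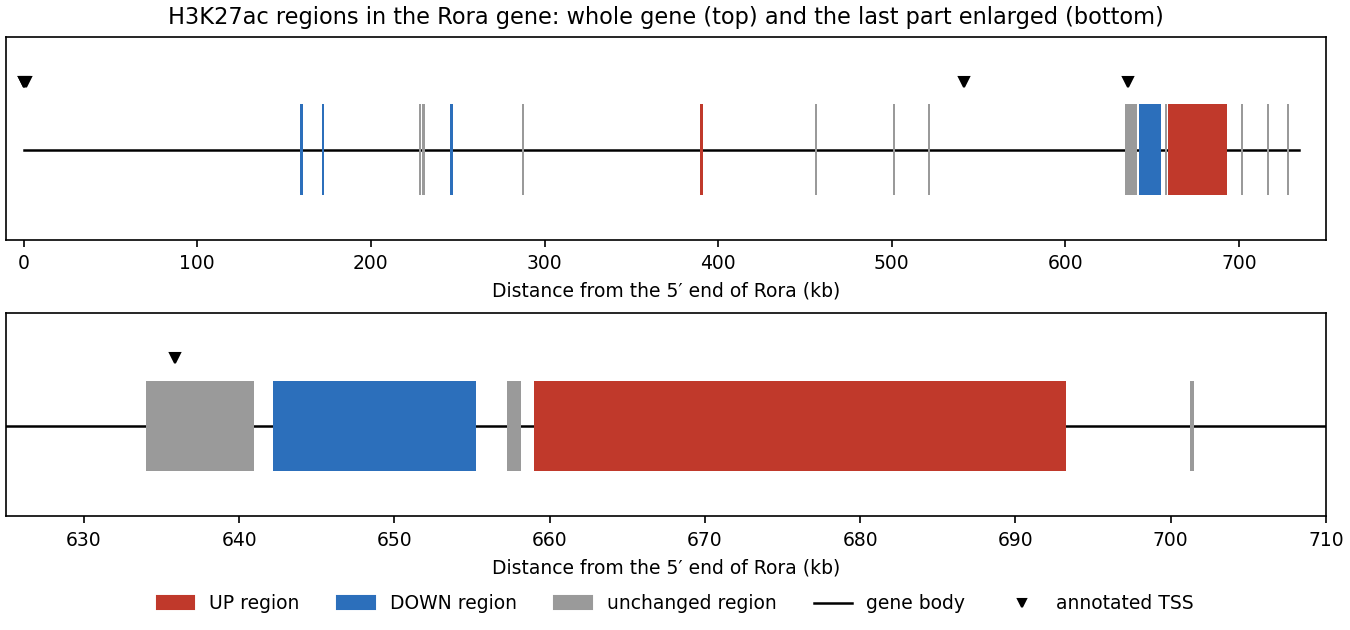
H3K27ac regions in Rora, over the whole gene (top) and enlarged around the Rora-202 TSS (bottom). The x axis is the distance in kb from the 5′ end of the gene, boxes are regions coloured by class with a minimum drawn width, the line is the gene body and triangles are TSSs. An unchanged region of 6946 bp covers the TSS of Rora-202, a DOWN region of 13069 bp follows, and an UP region of 34265 bp comes after a narrow unchanged one.

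The gene held 17 regions, 2 UP, 4 DOWN and 11 unchanged. The other 3 DOWN regions (1543, 797 and 1350 bp) and the other UP region (1648 bp) lay upstream of the Rora-202 TSS, within the long isoform alone. Rora had the most UP base pairs in its body of the 9 genes, 35913 bp, and ranked 4 of 3445 protein-coding genes with an UP region in the body. The neighbours in that order were Gm20388 (42953 bp) and Met (36070 bp) above, and Adk (35184 bp) and Mtss1 (33365 bp) below. It also had the most DOWN base pairs, 16759 bp, and ranked 54 of 1767. The neighbours there were Sh3bp5 (17503 bp) and Arid5b (16845 bp) above and Myl12b (16645 bp) and 2900026A02Rik (16386 bp) below. A longer gene has room for more such base pairs. As shares of the gene body, Rora was 4.89% UP and 2.28% DOWN, less than Per2 (14.8% and 33.2%).

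Per1 and Per2 encode the PER repressors and differed in class. Per1 lies on chr11:69095217-69109960 (+). All 6 of its TSSs lay in 1 unchanged region of 6600 bp (chr11:69094059-69100658), and a second unchanged region of 1464 bp covers exons 5 to 10. Together they cover 46.8% of the gene. Around it, 12 regions lay within 50 kb of its TSSs, 5 of them UP, and 0.816% of genes have 5 or more UP regions within 50 kb. None of these 5 was nearest to Per1. Their nearest TSSs were those of Borcs6 and 9330160F10Rik (2483 bp), Tmem107 (1590 bp), Vamp2 (1802 bp), Hes7 (990 bp) and Aloxe3 (1335 bp), and all but the region near Hes7 hold the TSS itself. Thus Per1 sat unchanged among UP promoters of other genes.

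Per2 lies on chr1:91415982-91459324 (-), and no region that touches it was unchanged. Its TSS lay in an UP region of 5669 bp (chr1:91454596-91460264), which reaches 940 bp upstream and 4728 bp downstream. Further into the gene, a DOWN region of 14381 bp (chr1:91435446-91449826) spans exons 3 to 10, begins 39 bp downstream of the TSS of the non-coding transcript Per2-202, and ranks 44 among DOWN regions. Another DOWN region of 2829 bp (chr1:91463148-91465976) lies 3824 bp upstream of the TSS, so the UP promoter was flanked by DOWN regions on both sides. A second UP region of 1697 bp covers exons 20 and 21, and its nearest TSS is that of Hes6, 5755 bp away. In all, 33.2% of the gene body was DOWN and 14.8% UP. The wide DOWN region held 9 ROR elements, 0.626 per kb, against 0.28 over all regions and 0.3 over DOWN regions. The wide DOWN region of Rora held 2, 0.153 per kb, so the density was not shared by the wide DOWN regions of both genes. Narrower DOWN regions were denser with 2 elements each, 0.707 per kb upstream of Per2 and 0.803 at the 3′ end of Nr1d2. The DOWN region of Cry2 had 0.345 per kb. Those of Arntl, of intron 1 of Nr1d2 and the narrow ones of Rora held 0.

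Cry1 and Cry2 encode the CRY repressors, and their promoters lay in regions of opposite class. The TSS of Cry1 (chr10:85131700-85185064, -) lay in an UP region of 2639 bp (chr10:85183502-85186140), the narrowest of the 3 UP promoters. The 3 other TSSs of Cry1 lay in no region. An unchanged region of 3616 bp was in intron 1, and another of 1687 bp lay 4351 bp upstream. A further UP region of 1410 bp lay within 50 kb of a downstream Cry1 TSS, at the TSSs of Tmem263 and Fhl4. No DOWN region lay within 50 kb.

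For Cry2 (chr2:92403646-92434043, -), all 3 TSSs lay in a DOWN region of 5795 bp (chr2:92429343-92435137), the only promoter of the 9 genes in this class. It extends 1094 bp upstream and 4700 bp downstream, into intron 1, and covers 15.5% of the gene. The 6 other regions within 50 kb were unchanged, 4 of them nearest to Cry2. The region held 3 E′-boxes and no E-box. Of 1426 regions of like width, 6.03% held 3 or more E′-boxes and 55.5% held any. An E-box stood in 53.2% of them.

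Nr1d1 and Nr1d2 encode the REV-ERB repressors of Arntl and also differed. In Nr1d1 (chr11:98767932-98775333, -), an UP region of 5500 bp (chr11:98771962-98777461) covers the TSS, exons 1 and 2 and 45.6% of this short gene. It was the only region in the gene. The 6 other regions within 50 kb were unchanged and nearest to Med24, Thra, Msl1, Casc3 or Gm12359.

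The TSS region of Nr1d2 (chr14:18204054-18239127, -) was unchanged and, at 7309 bp (chr14:18232470-18239778), the widest of the 9. Inside the gene lay 2 DOWN regions, one of 546 bp in intron 1 and one of 2492 bp (chr14:18203355-18205846) over exon 8 at the 3′ end, whose nearest TSS is that of Gm44469. No UP region lay within 50 kb. The Nr1d2 promoter region held 3 E-boxes, 0.41 per kb, fewer than in Nr1d1.

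The widths of the TSS regions are compared in the plot of widths by class. The median over the 9 genes was 5669 bp, against 1850 bp for the widest TSS region of all 12261 genes. Nr1d2, Rora, Per1, Cry2 and Per2 were among the widest, with 5.64%, 6.08%, 6.83%, 8.92% and 9.39% of genes as wide or wider. Arntl was ordinary, with 56.3% of genes as wide or wider. From the most upstream coding TSS in the region, the median reach over the 9 genes was 1094 bp upstream and 4700 bp downstream, against 617 and 988 bp over 9257 genes. The downstream side was longer in 8 of 9 clock genes, all but Clock, and in 70.5% of all genes. From the reference TSS of each gene it was longer in 7 of 9, since the region of Per1 then reaches 4889 bp upstream and 1710 bp downstream. DOWN regions at a TSS are wider in general, with a median of 3829 bp against 2136 bp for UP and 1530 bp for unchanged regions. Within each class, the clock gene regions were wider than the median of TSS regions.

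**Figure D3:**
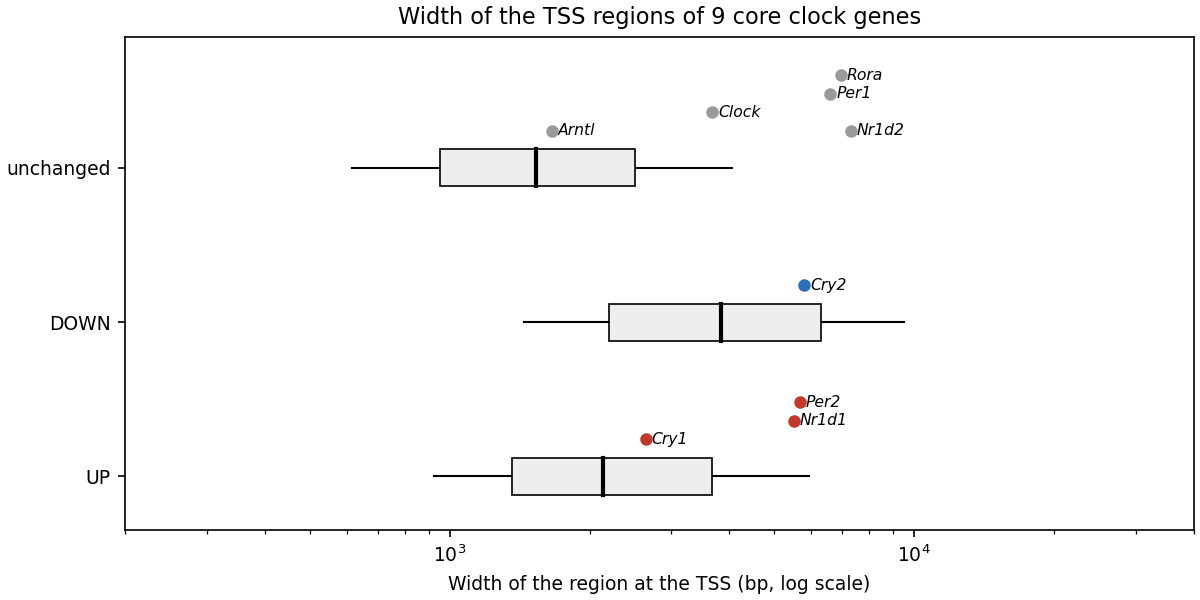
Width of the region at the TSS of each of the 9 core clock genes (points) on a log axis in bp, by class. Boxes give the quartiles and lines the 10th to 90th percentile of all TSS regions of that class. All 9 points lie to the right of the median of their class, and the points of Rora, Per1 and Nr1d2 lie beyond the line of the unchanged class.

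With the promoters included, 57 regions lay within 50 kb of a TSS of the 9 genes, 11 UP (19.3%), 7 DOWN (12.3%) and 39 unchanged (68.4%). These shares are near those over all 32196 regions, 17.1%, 10.5% and 72.4%. Without the promoters there were 48, of which 8 were UP, 6 DOWN and 34 unchanged. UP regions were near 5 genes (55.6%; 53.0% of all 12261 genes) and DOWN regions near 5 (55.6%; 31.9% of all). Both classes were near Rora and Per2, 2 of the 9 genes (22.2%; 16.3% of all). The clock gene itself had the nearest TSS for 30 of the 57. Of these, 3 were UP, the promoters of Per2, Cry1 and Nr1d1, and 6 were DOWN, counts too small to set apart from the shares over all regions. The remaining 8 UP regions were nearest to other genes, 5 of them around Per1.

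Gene bodies held 39 regions, 6 UP, 9 DOWN and 24 unchanged. DOWN regions made 23.1% of these, against 9.88% of 25247 regions in any gene body, and UP regions made 15.4%, against 17.4%. By genes, 5 of the 9 (55.6%) had a DOWN region in the body, Arntl, Rora, Per2, Cry2 and Nr1d2, where 15.0% of all genes had one. An UP region lay in the body of 4 of the 9 (44.4%), and of 29.7% of all genes. The clock genes were longer than most, with a median of 43343 bp against 18644 bp. Among all genes of 40 to 110 kb, 20.3% had a DOWN and 38.1% an UP region in the body. Only 4 of the 9 clock genes are of that length (Arntl, Clock, Per2 and Cry1), of which 2 had a DOWN and 2 an UP region. The share of DOWN regions among the changed ones was 60.0%, 9 of 15, with a Wilson 95% interval of 35.7 to 80.2% that covers counting error only. The interval treats the regions as independent although several lie in the same gene, so it is no test against other shares. Over all gene bodies the share was 36.3%, and over the clock genes without Rora it was 55.6%. Rora alone gave 4 of the 9 DOWN regions. In base pairs, the DOWN share was 46.1% over the 9 genes and 67.6% without Rora, whose wide UP region outweighs the DOWN regions.

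The ATF4/CHOP element was denser in UP regions, 0.06 per kb, than in DOWN (0.0244) or unchanged regions (0.0291). The promoter UP regions of Per2, Cry1 and Nr1d1 held 0. Of regions of like width, only 15.8%, 8.7% and 15.3% held any, so 0 was the usual count. The wide UP region of Rora held 1, as did its unchanged TSS region. In DOWN regions of the clock genes the element was found once each in Arntl, Rora and Cry2, where 7.5%, 26.8% and 15.8% of regions of like width held any. These counts are too small to compare the classes, which was not tested.

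The wider clock network was followed in 26 further genes, of which 21 had a TSS in a region. A TSS lay in an UP region in 7 of them, a DOWN region held one in 3, and 12 had unchanged regions only, with Por counted under both UP and DOWN. These make 33.3%, 14.3% and 57.1% of the 21 genes, against 21.4%, 8.91% and 70.1% of all genes, again a difference of few genes. Per3, Rorb, Bhlhe41, Fbxl21 and Noct had a TSS in no region. The UP genes included the repressors Ciart (1038 bp) and Hdac3 (2189 bp, the deacetylase that REV-ERB proteins recruit), the kinase Gsk3b (11260 bp) and the ubiquitin ligase subunit Fbxw11 (3453 bp). Among the bZIP factors that read out the clock through D-boxes, Nfil3, the repressor, lay in an UP region of 11815 bp. The activators Dbp and Hlf were unchanged only, and Tef had 1 TSS in an unchanged and 3 in an UP region (3968 bp).

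DOWN promoters were those of Wee1 (4462 bp), the cell cycle kinase, Lpin1 (8022 bp), a phosphatidate phosphatase of lipid synthesis, and Por (1165 bp), the reductase that serves the cytochromes P450. All 3 belong to the 6 clock-controlled liver genes of the list, of which 1 (Por) also had a TSS in an UP region (8845 bp). Of the 20 paralogs, repressors, kinases, ligases and output factors, 16 had a TSS in a region and 0 in a DOWN region. The share over all genes is 8.91%, so 0 of 16 differs from it by only a few genes. This set leaves out the group that holds all 3 DOWN genes, so the 0 follows from the grouping and sets no contrast. The widths are shown in the plot of the other clock genes.

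**Figure D4:**
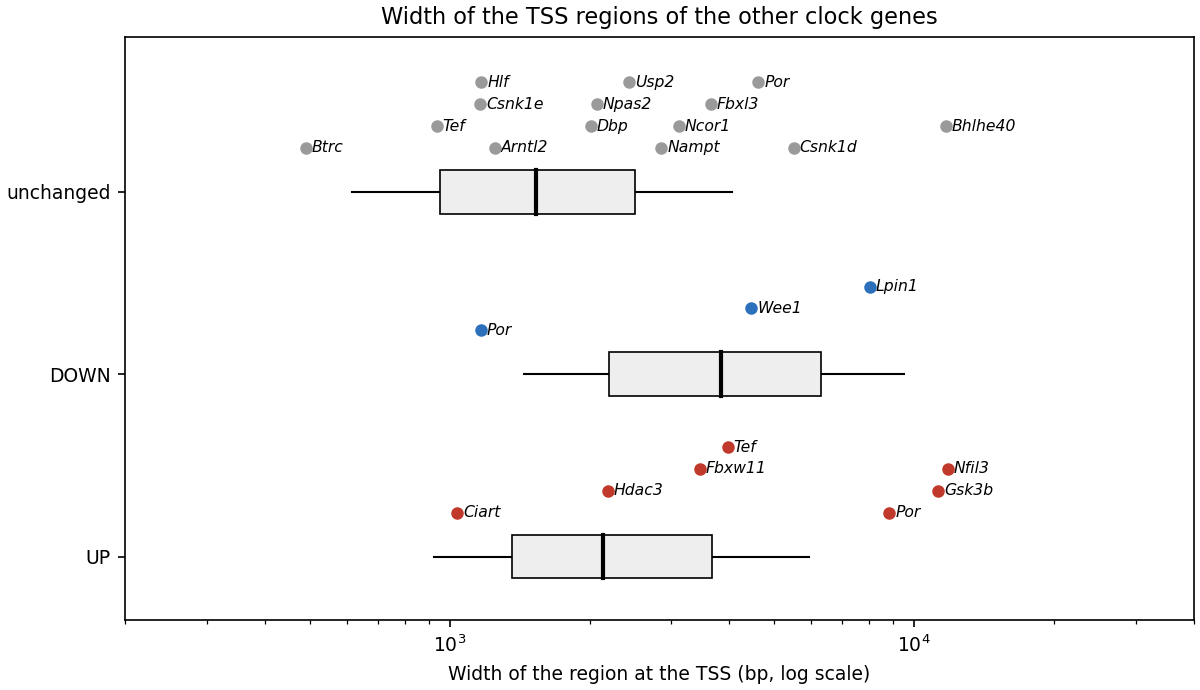
Width in bp on a log axis of each region that holds a TSS of a further clock gene, by class (points). Boxes give the quartiles and lines the 10th to 90th percentile of all TSS regions of that class. Nfil3 and Gsk3b lie beyond the line of the UP class, as does the UP region of Por. The 3 DOWN points are Por, Wee1 and Lpin1.

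Of the gene classes defined in the study by broad H3K4me3, Per2 was a LIVER-ID gene, and Cry2 and Nr1d1 were UBQ genes, which carry the mark ubiquitously. The remaining 6 were neither.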

How the data were processed

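H3K27ac was profiled by ChIP-seq in 8 libraries of MPH, with 3 H3K27ac libraries and 1 input per treatment. The deposited values are start and end positions in bp on mm10 of regions that the authors sorted into 3 lists. Bowtie and MACS2 are named in the submitters' processing notes. Per the study's methods and code, reads were filtered for duplicates and blacklisted regions, and broad peaks were called on pooled libraries. Reads extended to 200 bp were counted in 150-bp bins by csaw, filtered against input with a prior count of 5, normalized by loess and tested in a quasi-likelihood model paired by mouse. Bins sharing at least 75 bp with a peak were combined. At FDR values up to 0.05, regions were UP if bins that rose outnumbered those that fell by 2 or more, and DOWN if that ratio was 0.5 or less. Regions of higher FDR were unchanged. By these rules, a region of FDR up to 0.05 with a ratio between 0.5 and 2 falls in none of the 3 lists. A TSS in no region may therefore still carry H3K27ac. Loess normalization would remove a change shared by all regions, and a wide region can hold bins of both directions.

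Starts were made 1-based. Last regions of 21 chromosomes ended inside GRCm38 chromosome lengths. TSSs were those of 141767 transcripts of 55341 symbols in GENCODE release M21, and a gene was counted in every class with one of its TSSs. Distances within 50 kb ran from TSS to region edge, and gene bodies needed 1 bp of overlap. The reference TSS of each gene is that of its first basic coding transcript with a TSS in a region. Motifs were matched as exact strings on both strands. Counts have no test, since no value per library exists in the lists used. One gene of the wider clock list is not reported here and is left out of its counts. Counting functions were tested on simulated data with known answers. The members, gene lists and motifs were chosen with earlier results of these data known. Genes named are the 9 members, other clock genes in UP or DOWN regions, genes sharing a member's TSS region, neighbours of Rora in the order of UP and DOWN base pairs, Alb and Hnf4a. Genes named as nearest to a region, the other marker genes, and those of the clock list in unchanged or no regions were named after their values were seen, as was the length range of 40 to 110 kb. Alternatives varied the TSS set, distance, region width, background and counting unit. Python 3.11.15, numpy 2.4.6, pandas 2.3.3, scipy 1.17.1 and matplotlib 3.10.9 were used.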

Additional observations from a re-analysis of the deposited data

How the results depend on the processing

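Of 79 values recomputed, 66 stayed within 1.5 times, or within the 95% interval of a share, and 13 moved. For the DOWN share of changed regions in gene bodies, that interval was 35.7 to 80.2%. It is so wide that 46.1% and 67.6% counted as unmoved from 60.0%, so it says little about the stability of this share. No member changed from UP to DOWN or back at its TSS under any of the 7 alternatives tried. With the 5′ end of the gene alone, Rora had no region, and the other clock genes in DOWN regions fell from 3 to 1. With regions within 1 kb of a TSS, Per2 counted as both UP and DOWN and DOWN members rose to 2. Within 10 kb, DOWN members were 4 and members with unchanged regions only were 2. The background shares were 4.73% UP and 1.97% DOWN over all annotated genes, and 8.31% DOWN over protein-coding genes. Within 10 kb of the TSSs there were 4 UP and 15 unchanged regions, against 11 and 39. Regions nearest to a member were 3 UP and 21 unchanged. Regions of at least 1 kb left 24 unchanged near the TSSs and 13 in gene bodies. The shares without Rora were chosen after seeing the data. No paired analysis was possible because the lists hold no value per library, and leaving out a replicate was not possible for the same reason. The depth is unknown, so how far it limits the calls of unchanged regions cannot be given.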
